A study of Mus musculus with 8 samples.

Results

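Conventional dendritic cells (cDC) sample antigen for T cells, and in the spleen they fall into the subsets cDC1 and cDC2. The comparison described here sets cDC1 from Zeb2 -165(d1+2+3) mice against cDC2 from Irf8 +32-/- mice. Each subset thus came from mice whose genotype targets a gene of the opposite lineage, and the question is which differences between the subsets persist, weaken or appear when each is taken from such mice. Its members were chosen by sample title and are 4 of the 8 libraries of the series, 2 per group, all with deposited read counts. The other 4 libraries, 2 of wild-type (WT) cDC1 and 2 of WT cDC2, served as the reference contrast.

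All mice were untreated C57BL/6, the cells were sort-purified from spleen at 100000 cells per sample, and RNA was measured by bulk RNA sequencing. WT mice carry neither allele. By their names, the Zeb2 allele alters an enhancer upstream of Zeb2 and the Irf8 allele lacks an Irf8 enhancer on both chromosomes. No label reports a change in coding sequence, a Cre or a transgene. Each mutant was profiled in 1 subset only, so a genotype and a subset cannot be told apart within the mutant contrast. The sort gates, the animals behind each library and the meaning of replicate 2 and replicate 3 are unknown from the labels.

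As background, Irf8 encodes the transcription factor that cDC1 need throughout life, and its +32 enhancer, bound by BATF3 and IRF8, keeps Irf8 on in cDC1. Zeb2 encodes a zinc-finger repressor that binds E-boxes, opposes the cDC1 fate and favours cDC2, monocytes and plasmacytoid dendritic cells, and the upstream enhancer named in the genotype acts in myeloid progenitors. cDC1 are known for cross-presenting dead-cell antigen to CD8 T cells and for interleukin-12, and cDC2 for presenting antigen to CD4 T cells and for a broad set of pattern recognition receptors.

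The 4 mutant libraries held 49380686 to 55147183 counts and the 4 WT libraries 55638451 to 58611821. Levels below are CPM (counts scaled to library size) after TMM normalisation, given for replicate 2 and then replicate 3 of a group. The mutant contrast is the log2 fold change of Zeb2 mutant cDC1 over Irf8 mutant cDC2, and the WT contrast that of WT cDC1 over WT cDC2. The value after ± is the size of the log2 fold change divided by the square root of its test's F statistic. It is an approximate standard error from each test separately. The values of 2 contrasts therefore do not combine into that of their difference. Positive values mean higher in cDC1. The difference of the contrasts is the mutant minus the WT contrast, and it is the only test used here of whether a subset difference weakened, grew or appeared. The test was edgeR's quasi-likelihood test, its p-values were adjusted by the Benjamini-Hochberg method over the 20631 tested genes, and a gene is called at an adjusted p under 0.05. Replicate libraries agreed less in WT cDC1 than elsewhere: over the 8399 genes at a mean of at least 10 CPM, the SD of the log2 ratio of the replicates was 0.432 there, 0.243 in Zeb2 mutant cDC1, 0.328 in Irf8 mutant cDC2 and 0.238 in WT cDC2.

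Genes used as subset markers kept their sides in the mutant libraries. The cells had been sorted as cDC1 or cDC2 by gates that are unknown. How far the sort itself set the sides of these genes and of the marker lists below was not tested. Xcr1, the XCL1 receptor that marks cDC1 (chromosome 9:123852315-123862029, GRCm38), read 687 and 658 CPM in Zeb2 mutant cDC1 and 6.28 and 6.16 CPM in Irf8 mutant cDC2. Its levels were 700.4 and 688 CPM in WT cDC1 and 3.76 and 3.41 CPM in WT cDC2. Both cDC1 groups were therefore far above both cDC2 groups, with a mutant contrast of 6.76 ± 0.15 (adjusted p = 7.45e-09, 108-fold) against a WT contrast of 7.60 ± 0.16 (194-fold). The difference of the contrasts, -0.84 ± 0.17, was not called (adjusted p = 0.27).

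Irf8 (8:120736358-120756694) read 3709 and 3439 CPM in Zeb2 mutant cDC1 and 147 and 120.0 CPM in Irf8 mutant cDC2, beside 3263 and 3641 CPM in WT cDC1 and 126 and 104 CPM in WT cDC2. Within each subset the mutant and WT libraries lay close together: the mutant contrast was 4.74 ± 0.17 (26.8-fold, adjusted p = 4.24e-08), the WT contrast 4.91 ± 0.17 (30.02-fold), and their difference -0.16 ± 0.21 (adjusted p = 0.894). No fall of Irf8 was called in the cDC2 that carry the +32 allele. The direct log2 change was 0.21 ± 0.15 (adjusted p = 0.914).

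Sirpa, the CD47-binding receptor that marks cDC2 (2:129592835-129632228), showed the reverse order. It read 2.51 and 1.81 CPM in Zeb2 mutant cDC1 and 755 and 787 CPM in Irf8 mutant cDC2, against 2.59 and 1.88 CPM in WT cDC1 and 916 and 873 CPM in WT cDC2. It was 357-fold lower in the mutant cDC1 (-8.48 ± 0.23, adjusted p = 7.75e-09) and 399.8-fold lower in WT cDC1, with a difference of 0.17 ± 0.26 (adjusted p = 0.921).

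Zeb2 (2:44983632-45117395) read 2.24 and 3.54 CPM in the cDC1 that carry the Zeb2 allele and 197 and 172 CPM in Irf8 mutant cDC2. WT cDC1 held 2.09 and 2.10 CPM and WT cDC2 201 and 200.3 CPM, so Zeb2 was low in cDC1 of either genotype. The mutant contrast was -6.00 ± 0.22 (63.9-fold lower, adjusted p = 4.53e-08), the WT contrast -6.58 ± 0.23, and the difference 0.58 ± 0.27 (adjusted p = 0.674). Neither group holds the lineage its genotype targets, so these levels do not measure the alleles there. In bulk libraries, fewer cells of a type and less RNA per cell cannot be told apart.

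**Figure D1:**
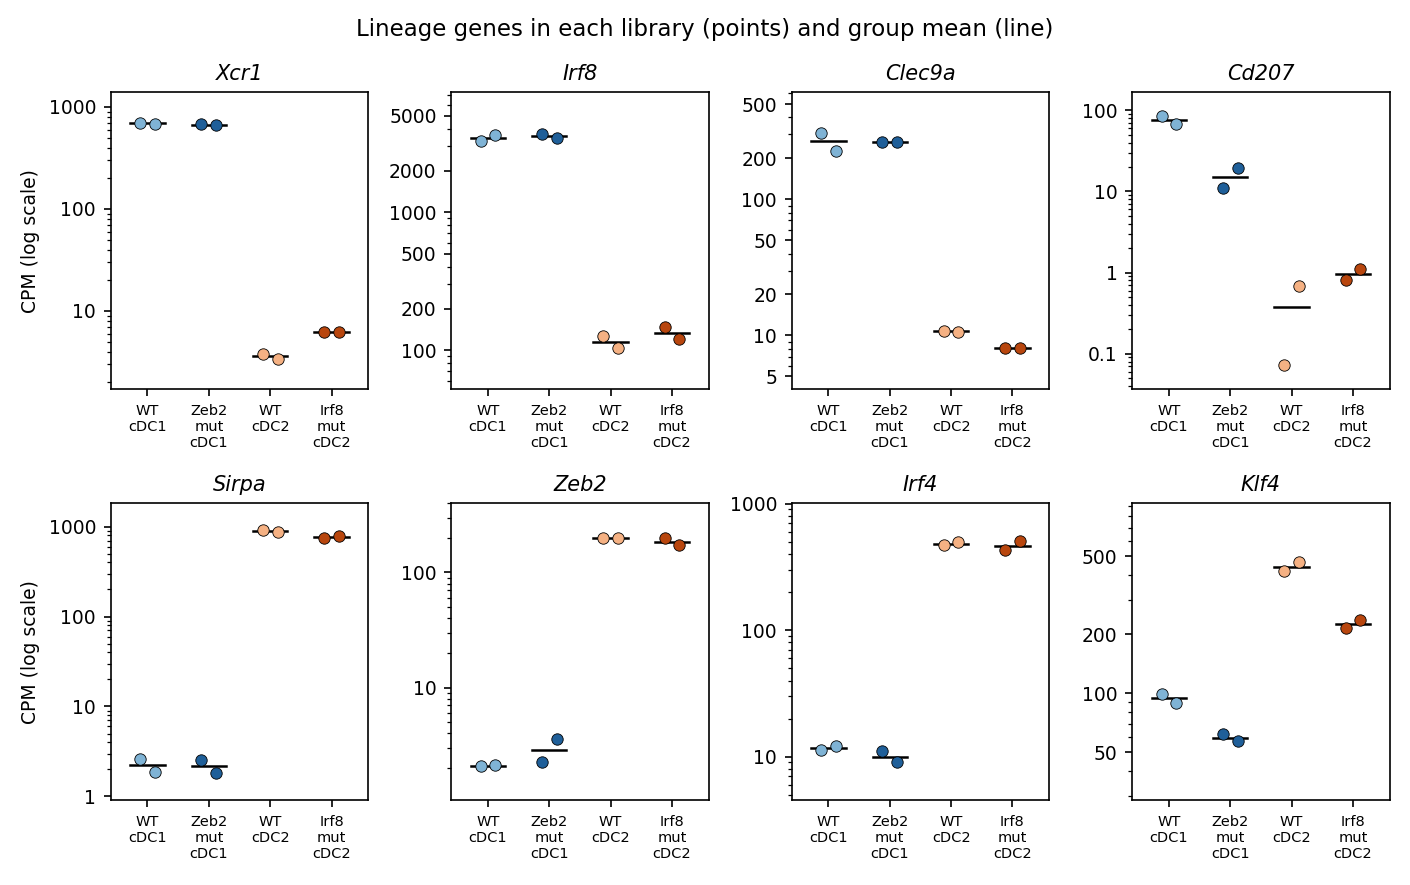
Levels of 8 lineage genes in each library, as TMM-normalised CPM on a log axis, with 1 panel per gene and 1 point per library in 4 groups of 2. Xcr1, Irf8 and Clec9a are high in both cDC1 groups and Sirpa, Zeb2 and Irf4 in both cDC2 groups, while Cd207 is lower in Zeb2 mutant cDC1 than in WT cDC1 and Klf4 is lower in both mutant groups than in their WT counterparts.

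The start-site windows of 3 genes are shown because Irf8 and Zeb2 are the targeted genes and Cd209a has the largest called difference of the contrasts (below 0, described further on). They are the 250 bases before a RefSeq transcript start (GRCm38.p6), 5′ to 3′ on the gene's strand, and capitals mark a match to a motif searched on both strands. The motifs were CAGGTG, an E-box of the kind ZEB proteins bind, TGANTCA, the core of an AP-1 site to which BATF proteins also bind, and the composite ETS and IRF element, given by name only.
Irf8, internal start, 8:120738389-120738638, plus strand: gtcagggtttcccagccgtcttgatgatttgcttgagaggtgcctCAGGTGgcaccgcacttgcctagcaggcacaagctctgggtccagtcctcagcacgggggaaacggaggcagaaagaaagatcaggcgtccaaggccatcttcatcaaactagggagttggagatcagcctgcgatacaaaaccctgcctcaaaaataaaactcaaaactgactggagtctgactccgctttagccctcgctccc
Zeb2, internal start, 2:45110278-45110527, minus strand: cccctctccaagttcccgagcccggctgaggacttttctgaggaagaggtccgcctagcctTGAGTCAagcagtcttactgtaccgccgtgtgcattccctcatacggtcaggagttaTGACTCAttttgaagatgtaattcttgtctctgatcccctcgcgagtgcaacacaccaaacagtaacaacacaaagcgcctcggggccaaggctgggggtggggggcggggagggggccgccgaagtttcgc
Cd209a, 8:3748985-3749234, minus strand: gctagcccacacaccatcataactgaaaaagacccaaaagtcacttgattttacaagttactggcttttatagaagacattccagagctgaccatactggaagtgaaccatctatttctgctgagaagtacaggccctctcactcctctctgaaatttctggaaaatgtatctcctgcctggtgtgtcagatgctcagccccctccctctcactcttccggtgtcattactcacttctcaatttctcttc
For Irf8 and Zeb2 the printed window is the only one of the gene's windows that held a match. The window before the internal Irf8 start held 1 CAGGTG, and the printed Zeb2 window held TGANTCA at 2 positions. The Cd209a window and the windows of the outermost Irf8 and Zeb2 starts held none of the 3 motifs. The windows of the other internal Zeb2 starts held none either. Of all 32851 RefSeq windows of this length, 17.2% held CAGGTG, 6.75% TGANTCA and 2.3% the composite element. Among the windows of tested genes these shares were 16.2%, 4.83% and 2.03%. For genes higher in cDC1 in both contrasts, 16.8%, 4.88% and 1.78% of windows held the motifs. For genes lower in both, the shares of windows were 15.3%, 5.32% and 2.24%. A match is a description of the letters and not of a bound site.

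Across the transcriptome, most subset differences persisted. In the mutant contrast 5750 genes (27.9% of the tested genes) were called, 2646 higher in Zeb2 mutant cDC1 (12.8%) and 3104 lower (15.0%). The WT contrast called 6219 (30.1%), 2932 higher in cDC1 (14.2%) and 3287 lower (15.9%). At a fold of 2 or more the mutant contrast kept 1484 higher (7.19%) and 2087 lower genes (10.1%), and the WT contrast 1634 (7.92%) and 2077 (10.1%). With 2 libraries per group, groups that do not overlap are common: cDC1 lay wholly above cDC2 for 32.2% and wholly below for 33.6% of tested genes in the mutant libraries, and for 32.8% and 32.1% in WT. The contrasts share no library, though they share the estimate of dispersion.

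Of the tested genes, 4406 (21.4%) were called the same way in both contrasts, 2037 higher and 2369 lower in cDC1. Their sizes were alike, with a median absolute log2 fold change of 1.35 in WT and 1.33 in the mutant libraries. A further 1802 genes (8.73%) were called in WT only and 1333 (6.46%) in the mutant contrast only. In both of these classes the sign mostly held: 92.7% of the WT-only and 91.1% of the mutant-only genes had the same sign in the contrast that did not call them. Opposite directions were called for 11 genes, 0.0533% of those tested. Only 4 genes (0.0194%) were called for the difference of the contrasts, all below 0, and 1573 (7.62%) had an unadjusted p under 0.05 for it. None of the WT-only or mutant-only genes was called for the difference, so the counts of those classes do not show that a difference was lost or gained. Across the 8399 genes at a mean of at least 10 CPM the difference followed gene length (Spearman's rho = 0.354), as did Zeb2 mutant minus WT cDC1 (0.481) and, in the other direction, the log2 difference between the WT cDC1 replicates (replicate 2 minus 3, -0.391).

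Persistence differed with size and level. Of the 6219 genes called in WT, 70.8% were called the same way in the mutant contrast and 97.7% had the same sign. The share called was 57.7% of genes with a WT log2 fold change under 1, 78.5% between 1 and 2, 81.8% between 2 and 4 and 80.1% above 4. By level, it was 38.3% of genes under 1 CPM in the higher WT group and 78.4% of those above 100 CPM. In the other direction, 76.6% of the genes called in the mutant contrast were called the same way in WT. Over the 8399 genes at a mean of at least 10 CPM the 2 contrasts correlated with Pearson's r = 0.945 and Spearman's rho = 0.891, and over all 20631 genes with r = 0.654 and rho = 0.668. Those are values across genes, which are not independent replicates.

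To compare sizes without choosing genes on either contrast alone, genes were also taken by the mean of the 2 contrasts. That mean had to be called and at least 1 in absolute log2 terms. The 1891 genes higher in cDC1 by that measure had a median of 1.66 in WT and 1.59 in the mutant libraries, and 58.2% of them had the smaller value in the mutant libraries. The 2462 genes lower in cDC1 by it had medians of 2.08 in WT and 2.19 in the mutant libraries in absolute terms, with 45.6% smaller in the mutant libraries. The medians over all tested genes were -0.02 in the mutant and 0.03 in the WT contrast, and -0.05 for their difference.

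**Figure D2:**
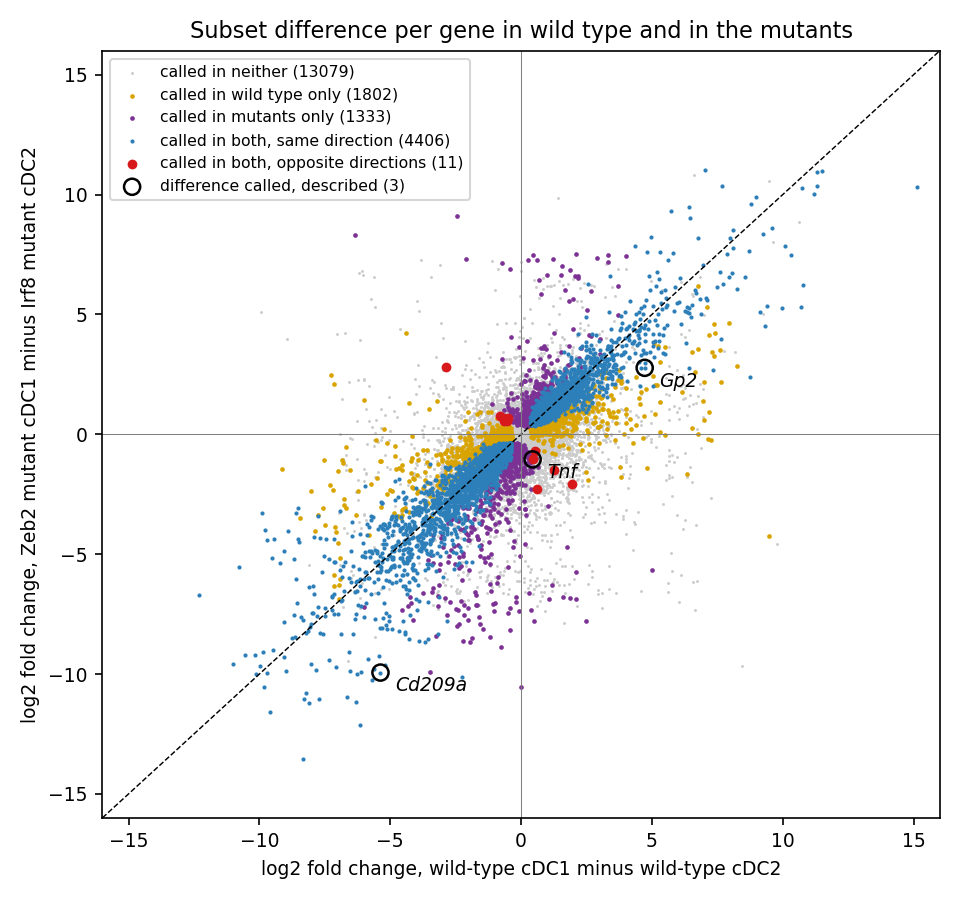
Each point is 1 of the 20631 tested genes, placed by its log2 fold change in WT (horizontal axis) and in the mutant contrast (vertical axis) and coloured by class, with 3 of the genes called for the difference of the contrasts circled. The 4406 genes called the same way in both lie along the diagonal, and the 11 called in opposite directions lie off it.

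**Figure D3:**
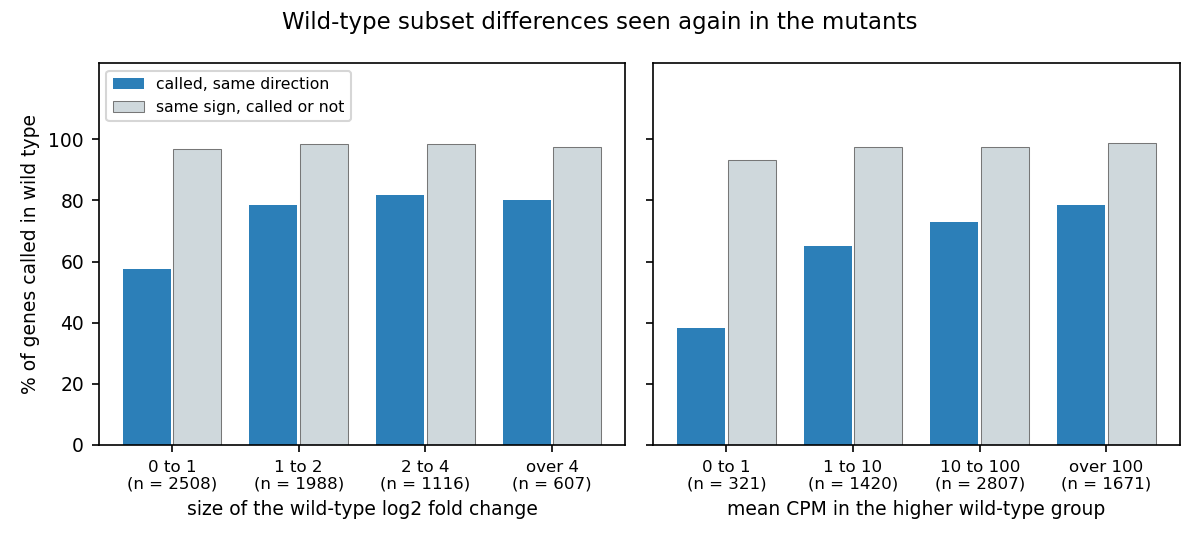
Share of the 6219 WT-called genes that were called the same way (dark bars) or had the same sign (light bars) in the mutant contrast, as percent on axes from 0, by size of the WT log2 fold change and by mean CPM in the higher WT group. The share called is lowest for changes under 1 (57.7%) and for genes under 1 CPM (38.3%), while the share with the same sign is high throughout.

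Among called genes with at least 5 CPM in the higher group and libraries that did not overlap, those with the largest values higher in Zeb2 mutant cDC1 were mostly at background in cDC2. Dkk3, a secreted glycoprotein of the Dickkopf family, read 118 and 140.4 CPM in Zeb2 mutant cDC1 and 0.193 and 0 CPM in Irf8 mutant cDC2 (1343-fold). Gpr141b, an orphan receptor with a near copy beside it, read 513 and 457 CPM against 0.501 and 0.265 CPM, and Gcsam, an adaptor of lymphocyte motility, 319 and 329.7 CPM against 0.0770 and 0.551 CPM. Tlr3, which senses double-stranded RNA, read 417 and 308 CPM in Zeb2 mutant cDC1 and 1.31 and 1.14 CPM in Irf8 mutant cDC2. It was 295-fold higher (8.20 ± 0.27, adjusted p = 2.58e-08), beside 108-fold in WT, where it read 260.1 and 322 CPM in cDC1 and 2.20 and 3.16 CPM in cDC2. The same set held 2 genes of Wnt signalling, the receptor Fzd1 (119 and 118 CPM against 0.270 and 0.367 CPM, 372-fold) and the Wnt-cleaving protease Trabd2b (15.1 and 14.8 CPM against 0.0578 and 0.0408 CPM, 303-fold). It also held the collagen prolyl hydroxylase P3h2 (113 and 135 CPM against 0.424 and 0.326 CPM), the adaptor Clnk (38.4 and 43.9 CPM against 0.308 and 0.0408 CPM), Gramd2 (66.3 and 71.3 CPM against 0.0193 and 0.122 CPM) and the aldo-keto reductase Akr1b8 (6.88 and 10.6 CPM against 0 and 0.0204 CPM, with too few counts for a fold). All 10 were called higher in WT cDC1 too.

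The largest values in the other direction included surface receptors of the myeloid line. Clec4a4, an inhibitory C-type lectin of cDC2, read 0.0860 and 0.0553 CPM in Zeb2 mutant cDC1 and 55.9 and 64.0 CPM in Irf8 mutant cDC2 (848-fold lower), and its relative Clec4a3 0 and 0.0553 CPM against 67.3 and 56.6 CPM. The signal-regulatory proteins Sirpb1b (0 and 0.0369 CPM against 28.5 and 32.0 CPM) and Sirpb1c (0.0516 and 0 CPM against 27.3 and 27.4 CPM) followed. These 4 have near-identical copies in the genome, so the split of reads among them is uncertain. Tarm1, a myeloid activating receptor, and Bmp8a, a ligand of the bone morphogenetic protein family, had no count in either library of Zeb2 mutant cDC1. Against 4.64 and 5.85 CPM and 4.89 and 5.91 CPM in Irf8 mutant cDC2, and a floor of 3 counts over the group, they were at least 197-fold and at least 202-fold lower. The sodium channel Scn3a (0 and 0.148 CPM against 82.5 and 64.2 CPM), the lipid transporter Abca9 (0.0688 and 0.0369 CPM against 132 and 101 CPM), the globin Cygb (0.0172 and 0 CPM against 11.8 and 6.79 CPM) and the lectin Cd209a completed the set. All 10 were called lower in WT cDC1 too. Each of these 20 calls held without any 1 library, but values resting on a group near 0 moved: without Irf8 mutant cDC2 replicate 2 or replicate 3, Dkk3 ran from 9.44 to 15.84, and without Zeb2 mutant cDC1 replicate 2 or replicate 3, Scn3a ran from -14.98 to -8.93.

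All 25 genes of the cDC1 marker list were called higher in Zeb2 mutant cDC1 and in WT cDC1, against the 12.8% and 14.2% of tested genes called higher in each. Lower calls made up 15.0% of tested genes in the mutant and 15.9% in the WT contrast. Counts of called members of all lists below stand against these same shares. The list's median log2 fold change was 5.34 in the mutant and 5.36 in the WT contrast, beside medians near 0 over all genes. Its summed level was 22670 and 22600 CPM in Zeb2 mutant cDC1, 20750 and 21840 CPM in WT cDC1, 2667 and 2427 CPM in Irf8 mutant cDC2, and 2516 and 2370 CPM in WT cDC2. None of the 25 differences of the contrasts was called, and 9 had an unadjusted p under 0.05.

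Receptors came first among them. Clec9a, the receptor for actin of dead cells, read 264 and 264 CPM in Zeb2 mutant cDC1, 8.07 and 8.03 CPM in Irf8 mutant cDC2, 307 and 227 CPM in WT cDC1 and 10.8 and 10.6 CPM in WT cDC2. It was 32.7-fold higher in the mutant contrast (5.03 ± 0.18) and 25.0-fold higher in WT, with no overlap between subsets. Itgae, the CD103 integrin chain, read 199 and 259 CPM in Zeb2 mutant cDC1 and 104 and 112 CPM in WT cDC1, against 1.25 and 1.203 CPM and 1.47 and 2.40 CPM in the mutant and WT cDC2. Its fold was 187-fold in the mutant and 55.9-fold in the WT contrast, but the difference was not called (1.74 ± 0.32, adjusted p = 0.236). The adhesion molecule Cadm1 (60.9-fold), the CD8 chain Cd8a (37.9-fold), the scavenger receptor Cd36 (18.2-fold), the antigen uptake receptor Ly75 (4.22-fold) and the inhibitory receptor Btla (7.89-fold) were higher too.

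Among the 25, Cd207, the lectin langerin, had the lowest value of Zeb2 mutant over WT cDC1 (-2.32 on the log2 scale, adjusted p = 0.16). It read 11.04 and 19.5 CPM in Zeb2 mutant cDC1 against 84.1 and 67.9 CPM in WT cDC1, and 0.809 and 1.12 CPM and 0.0727 and 0.675 CPM in the mutant and WT cDC2. The cDC1 groups did not overlap. It stayed called in the mutant contrast (3.98 ± 0.54, 15.8-fold, adjusted p = 0.000625), beside 203-fold in WT, and the difference of -3.67 ± 0.80 was not called (adjusted p = 0.325).

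The regulators Batf3 and Id2 on this list had small contrasts, unlike Irf8, which is described above. Batf3, the AP-1 family partner of IRF8 in cDC1, read 76.8 and 88.1 CPM in Zeb2 mutant cDC1 and 45.9 and 48.3 CPM in Irf8 mutant cDC2 (1.75-fold), beside 99.1 and 102 CPM and 48.4 and 50.1 CPM in WT cDC1 and cDC2 (2.05-fold). Id2, an inhibitor of E proteins, read 548 and 560.2 CPM against 283 and 281 CPM in the mutants (1.96-fold) and 849 and 552 CPM against 174 and 195 CPM in WT (3.79-fold). Its difference of the contrasts was -0.95 ± 0.25 (adjusted p = 0.387), not called. Wdfy4, needed for cross-presentation, read 4414 and 4409 CPM in Zeb2 mutant cDC1, 1706 and 1542 CPM in Irf8 mutant cDC2 and 2115 and 4250.2 CPM in WT cDC1. That last pair differed from each other about as much as WT cDC1 differed from WT cDC2, and the WT call of Wdfy4 was lost without WT cDC1 replicate 3 (0.33).

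Of the 24 cDC2 markers, 22 were called lower in Zeb2 mutant cDC1 and 1 higher, the same counts as in WT, and 23 were called the same way in both. Medians were -5.52 and -5.27. The exceptions were Clec12a, a lectin higher in cDC1 (159 and 159.6 CPM against 30.1 and 44.0 CPM, 4.31-fold), and the lysozyme gene Lyz2, which was not called (585 and 902 CPM against 478 and 393 CPM, adjusted p = 0.0553). Irf4, the factor of cDC2 function and migration, read 11.01 and 9.04 CPM in Zeb2 mutant cDC1 and 427 and 506 CPM in Irf8 mutant cDC2 (46.5-fold lower), beside 40.9-fold lower in WT. Csf1r, the receptor of macrophage colony-stimulating factor, read 11.4 and 11.3 CPM against 557 and 466 CPM (45.1-fold lower). Tlr7, the sensor of single-stranded RNA, read 0.224 and 0.148 CPM against 109 and 116 CPM (608-fold lower). These 3 sat far apart between the subsets in every library.

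Klf4, a factor of cDC2 that promote type 2 responses, was intermediate. It read 62.1 and 56.8 CPM in Zeb2 mutant cDC1, 215 and 237 CPM in Irf8 mutant cDC2, 99.1 and 89.6 CPM in WT cDC1 and 419 and 469 CPM in WT cDC2. Both mutant groups lay below their WT counterparts, and the contrasts stayed alike at 3.80-fold and 4.71-fold lower (difference 0.31 ± 0.18, adjusted p = 0.734). The lectins Clec10a (0.258 and 0.332 CPM against 33.3 and 20.8 CPM) and Mgl2 (0.103 and 0.0369 CPM against 62.0 and 18.1 CPM) were lower in the mutant cDC1, with a spread inside Irf8 mutant cDC2 that was wide for Mgl2: its log2 fold change was -9.09, and -7.88 without replicate 2 of that group. Clec7a (34.5-fold), Itgam (39.3-fold), Cx3cr1 (12.4-fold) and Fcer1g (21.8-fold) were lower as well.

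Splenic cDC2 are divided into Notch2-dependent cells high in ESAM and cells low in ESAM that resemble monocytes. On the list of the first kind 8 of 14 genes were called lower in Zeb2 mutant cDC1 and none higher, with medians of -1.96 in the mutant and -2.34 in the WT contrast. Esam itself read 4.63 and 5.94 CPM against 40.0 and 44.2 CPM (7.97-fold lower), Cd4 12.7 and 10.8 CPM against 207 and 181 CPM (16.5-fold), and the Notch target Dtx1 10.97 and 5.27 CPM against 382 and 419 CPM (49.3-fold). Notch2, the receptor, read 287 and 293 CPM against 279 and 284 CPM and was not called (adjusted p = 0.921). Tbx21, the factor T-bet of the cDC2A state, read 2.29 and 2.36 CPM in Zeb2 mutant cDC1 and 70.9 and 41.6 CPM in Irf8 mutant cDC2, against 5.13 and 5.58 CPM and 41.1 and 42.2 CPM in WT. That is 24.2-fold lower beside 7.78-fold lower, with a difference that was not called (-1.64 ± 0.33, adjusted p = 0.27). On the ESAM-low list 9 of 13 were called lower and 2 higher (Clec12a and Ly6c2), against 6 lower and 4 higher in WT, with medians of -3.63 and -2.53. The WT count of higher genes was 2 without WT cDC1 replicate 2 or either WT cDC2 library. The WT median was -1.55 without WT cDC1 replicate 2 and -3.97, beyond the mutant one, without WT cDC1 replicate 3. That list holds Cd209a, for which the difference was called.

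Of 40 lineage transcription factors, 3 were called higher in Zeb2 mutant cDC1 (Irf8, Batf3 and Id2) and 21 lower, against 5 and 22 in WT, and 22 were called the same way in both. The median was -0.58 in the mutant and -0.68 in the WT contrast. The NF-kB members Rel (718 and 784 CPM against 3212 and 3241 CPM, 4.30-fold lower) and Relb (86.0 and 101 CPM against 442 and 438 CPM, 4.71-fold lower) were among the most abundant. Cebpb, a factor of myeloid genes, read 8.08 and 8.02 CPM against 43.5 and 43.3 CPM (5.39-fold lower, 8.51-fold in WT). The plasmacytoid and B cell factor Spib read 3.82 and 3.08 CPM against 52.9 and 51.3 CPM (15.1-fold lower, 34.7-fold in WT), and Tcf4, the plasmacytoid regulator, was 3.17-fold lower. Runx3 (3.15-fold), Id3 (7.73-fold) and Spi1, which encodes PU.1 (1.75-fold), were lower too.

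Of these factors 5 were called in WT only. Bcl6, the repressor that dendritic cells share with germinal centre B cells, read 179 and 184 CPM in Zeb2 mutant cDC1 and 204 and 264 CPM in Irf8 mutant cDC2, against 119.6 and 146 CPM in WT cDC1 and 364 and 344 CPM in WT cDC2. The gap between subsets was narrower in the mutant libraries from both sides, -0.37 ± 0.15 (adjusted p = 0.104) beside -1.41 ± 0.16, yet the difference was not called (1.04 ± 0.22, adjusted p = 0.27). Cebpa read 20.04 and 25.1 CPM against 16.6 and 13.1 CPM in the mutants and 15.3 and 11.1 CPM against 21.7 and 19.3 CPM in WT, with point estimates of opposite sign (0.60 and -0.63) and a difference of 1.24 ± 0.30 (adjusted p = 0.353). Bcl11a, Batf2 and Id1 were the remaining 3. In the mutant contrast only, 2 were called, the Notch target Hes1 (9.29 and 10.5 CPM against 17.9 and 26.3 CPM, -1.16 ± 0.21, adjusted p = 0.00199, with -0.46 in WT) and Nfil3 (-0.85 ± 0.22, adjusted p = 0.0138). The Nfil3 call was lost without Zeb2 mutant cDC1 replicate 2 or Irf8 mutant cDC2 replicate 2. Zbtb46, which marks both subsets (231 and 203 CPM against 195 and 177 CPM), and Zeb1, the paralogue of Zeb2 (49.2 and 48.6 CPM against 46.1 and 47.8 CPM), were called in neither contrast.

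The sensors of microbes divided between the subsets mostly as in WT. Of 27 tested pattern recognition receptors 3 were called higher and 18 lower in each contrast, 19 the same way in both, with medians of -1.44 and -1.42 (-0.92 in the mutant contrast without Irf8 mutant cDC2 replicate 2). The 3 higher ones were Tlr3, Tlr11 (291 and 254 CPM against 12.5 and 8.79 CPM) and Tlr12 (117 and 121 CPM against 1.10 and 2.22 CPM, 71.7-fold), the last 2 being receptors of profilin of protozoa. Lower ones included the flagellin receptor Tlr5 (182.9-fold), the lectin receptor Clec4n (27.1-fold), the inflammasome sensor Nlrp3 (57.9 and 54.8 CPM against 254 and 231 CPM, 4.31-fold) and the RNA helicase Ddx58, which encodes RIG-I (14.5-fold). Tmem173, which encodes STING, was called in WT only (-0.31 in the mutant contrast, adjusted p = 0.219, against -0.90). The Tlr5 and Ddx58 values rest on few counts in Zeb2 mutant cDC1, and both calls held without either of its libraries.

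Machinery of antigen presentation kept its division as well. Of 19 genes of MHC class I presentation 11 were called higher in Zeb2 mutant cDC1 and 1 lower, beside 11 and 0 in WT, with medians of 0.69 and 0.63. The peptide transporter chain Tap1 read 662 and 620.3 CPM against 220.2 and 201 CPM (3.04-fold) and the loading-complex isomerase Pdia3 1555 and 1470.4 CPM against 429 and 407 CPM (3.62-fold). The immunoproteasome subunits Psmb8 (2.20-fold) and Psmb9 (2.51-fold) were higher too. H2-K1 was the lower one, at 1267 and 1376 CPM against 2192 and 1862 CPM (-0.62 ± 0.13, adjusted p = 0.00525), a call lost without Zeb2 mutant cDC1 replicate 2 or Irf8 mutant cDC2 replicate 2, in a family whose members share sequence.

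Of 14 tested class II genes 3 were higher and 5 lower in both contrasts, the same 8 genes, with medians of -0.18 and -0.05 (0.11 in WT without WT cDC1 replicate 3 and 0.02 without WT cDC2 replicate 2). March1, the ligase that removes class II from the surface, read 210.3 and 204 CPM against 46.0 and 77.5 CPM (3.35-fold), and H2-DMb2, a chain of the peptide editor, was 3.83-fold lower. The protease Lgmn (6.06-fold) and H2-Eb2 (6.11-fold) were lower too, and Cd74, H2-Ab1, H2-Aa, H2-Eb1 and Ciita were called in neither. Of 16 cross-presentation effectors 8 were higher and 4 lower, against 8 and 3 in WT, and the lower ones were 2 without Zeb2 mutant cDC1 replicate 3, Irf8 mutant cDC2 replicate 2 or either WT cDC2 library. Cybb, the oxidase subunit that alkalises phagosomes, read 4.06 and 4.54 CPM in Zeb2 mutant cDC1 and 547 and 526 CPM in Irf8 mutant cDC2 (124.8-fold lower), while Rab43, a trafficking GTPase of cDC1, was 1.78-fold higher.

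The difference of the contrasts was called for 4 genes, all below 0: relative to WT, the cDC1 side was lower against the cDC2 side. Cd209a, Tnf and Gp2 are described. Cd209a, a lectin of the DC-SIGN family and marker of ESAM-low cDC2 (8:3743397-3748984), read 0.378 and 0.406 CPM in Zeb2 mutant cDC1 and 431 and 343 CPM in Irf8 mutant cDC2. WT cDC1 held 11.5 and 5.53 CPM and WT cDC2 381 and 324 CPM, so the cDC1 groups stood apart and the cDC2 groups overlapped. The mutant contrast was -9.94 ± 0.41 (987-fold lower, adjusted p = 9.85e-08), the WT contrast -5.37 ± 0.32 (41.5-fold lower), and the difference -4.57 ± 0.46 (adjusted p = 0.025). The direct change was -4.43 in cDC1 (adjusted p = 0.00322) and 0.13 in cDC2 (adjusted p = 0.991). A subset difference already present in WT was thus larger in the mutant libraries.

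Tnf, the inflammatory cytokine (17:35199381-35202007), read 31.7 and 32.5 CPM in Zeb2 mutant cDC1 and 64.5 and 68.2 CPM in Irf8 mutant cDC2, against 81.1 and 72.9 CPM in WT cDC1 and 55.5 and 58.0 CPM in WT cDC2. It was lower in cDC1 in the mutant contrast (-1.05 ± 0.13, adjusted p = 0.000135) and higher in cDC1 in WT (0.44 ± 0.12, adjusted p = 0.0221), with a difference of -1.49 ± 0.18 (adjusted p = 0.035). The WT call was lost without WT cDC1 replicate 2, either WT cDC2 library or either Zeb2 mutant library. Within cDC1 Tnf fell by 1.26 on the log2 scale (adjusted p = 0.00723).

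Gp2, a glycoprotein receptor for bacterial FimH in gut epithelium (7:119442537-119459285), had a smaller gap between the mutant groups than between the WT groups. It read 31.3 and 33.0 CPM in Zeb2 mutant cDC1 and 4.80 and 4.61 CPM in Irf8 mutant cDC2, against 68.1 and 62.4 CPM and 2.20 and 2.74 CPM in WT. It was 6.83-fold higher in the mutant cDC1 (2.77 ± 0.17) and 26.5-fold higher in WT cDC1 (4.72 ± 0.18), a difference of -1.95 ± 0.23 (adjusted p = 0.035). Neither direct change passed the test, with -1.02 in cDC1 (adjusted p = 0.0603) and 0.93 in cDC2 (adjusted p = 0.189). All 3 calls depended on the setting. With the replicate block or the gene length offset the calls of Gp2 and Tnf were lost, and with the crossed block that of Cd209a. The difference kept its sign in every setting tried, running with 1 library left out from -4.94 to -3.93 for Cd209a, -2.07 to -1.76 for Gp2 and -1.501 to -1.40 for Tnf. Yet none of the 3 was called without WT cDC2 replicate 2, WT cDC2 replicate 3, Zeb2 mutant cDC1 replicate 2, Zeb2 mutant cDC1 replicate 3 or Irf8 mutant cDC2 replicate 2. Without Irf8 mutant cDC2 replicate 3 Cd209a was called and Gp2 and Tnf were not.

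**Figure D4:**
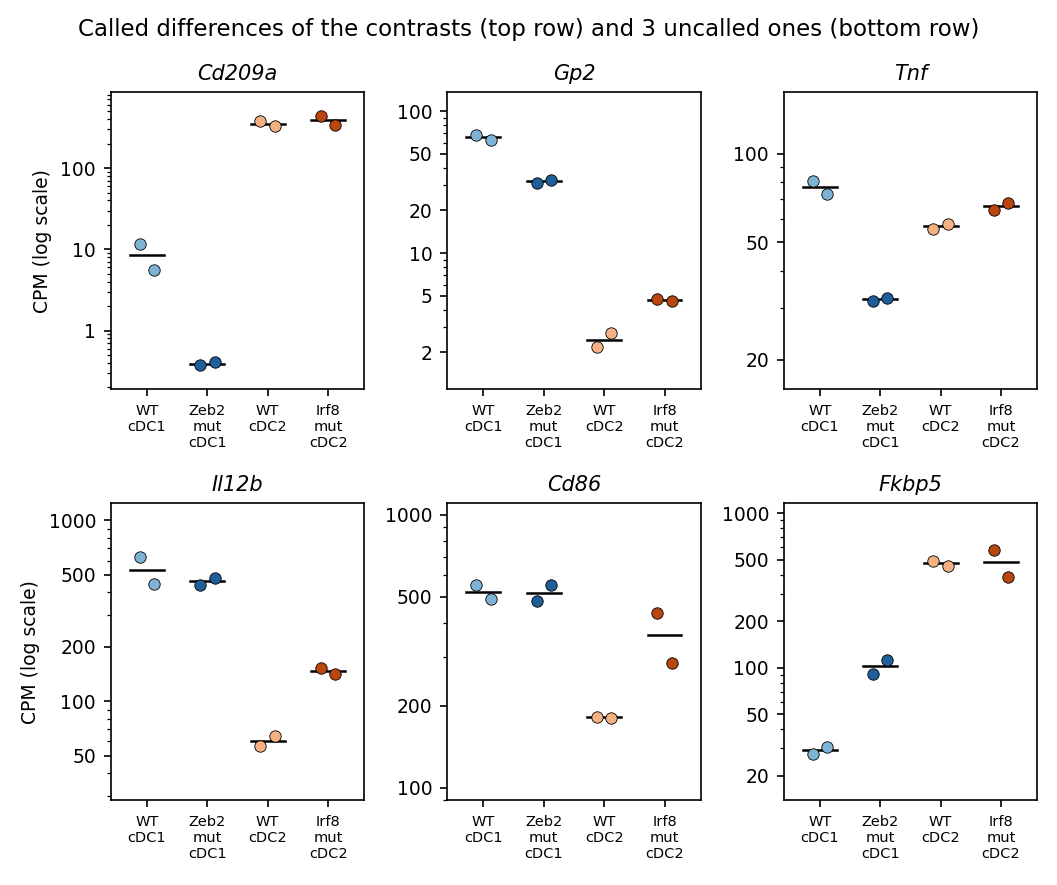
TMM-normalised CPM on a log axis for each library of 6 genes, with the 4 groups along the horizontal axis. The top row holds 3 called differences of the contrasts (Cd209a, Gp2 and Tnf) and the bottom row 3 that were not called (Il12b, Cd86 and Fkbp5). Cd209a and Tnf are lower in Zeb2 mutant cDC1 than in WT cDC1, and Gp2 and Il12b lie closer together between the mutant groups than between the WT groups.

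None of the next genes by p was called, and 5 of them are described. Apol7c, an apolipoprotein L that opens phagosomes of cDC1, read 325 and 313 CPM in Zeb2 mutant cDC1, 147 and 142 CPM in Irf8 mutant cDC2, 546 and 577 CPM in WT cDC1 and 113 and 111 CPM in WT cDC2. The folds were 2.21-fold and 5.002-fold (difference -1.18 ± 0.16, adjusted p = 0.078). Each mutant group lay between the WT groups.

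Fkbp5, a chaperone induced by glucocorticoids, read 91.4 and 112 CPM in Zeb2 mutant cDC1 and 581 and 388 CPM in Irf8 mutant cDC2, against 27.7 and 30.7 CPM in WT cDC1 and 493 and 456 CPM in WT cDC2. Both libraries of Zeb2 mutant cDC1 lay above those of WT cDC1, with a difference of 1.77 ± 0.27 (adjusted p = 0.12). The adaptor Pag1 had the same layout, with 14.0 and 12.8 CPM against 5.67 and 6.53 CPM in the 2 cDC1 groups and a difference of 1.44 ± 0.22 (adjusted p = 0.131). Abca9 (-3.31 ± 0.45, adjusted p = 0.078) and H2-M2, a class I-like gene (-1.85 ± 0.27, adjusted p = 0.113), had values below 0. In the direct test of Zeb2 mutant over WT cDC1, Fkbp5 and Pag1 rose (adjusted p = 0.0109 and 0.045). Abca9 and H2-M2 fell in it (adjusted p = 0.0185 and 0.0185). None of these 4 genes was called between the cDC2 groups. They were chosen by the p of the difference, which uses the same libraries. The direct tests were run in the main fit only, and Zeb2 mutant minus WT cDC1 followed gene length (rho = 0.481). All 5, Apol7c included, were called for the difference by DESeq2 (81 genes in each direction) and without the filter on low counts (139 and 167). The same held without WT cDC1 replicate 3. None of the 5 was called with other scaling, a stricter filter, the replicate block, the gene length offset or robust estimation off.

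Of the genes called in opposite directions, 9 had no called difference of the contrasts. The zinc-finger gene Tshz3 read 1.41 and 0.959 CPM in Zeb2 mutant cDC1 and 0.193 and 0.143 CPM in Irf8 mutant cDC2 (2.80), against 0.0691 and 0.103 CPM and 0.455 and 0.835 CPM in WT (-2.88). Timd4, a phosphatidylserine receptor, had values of -1.49 and 1.25, with 11.5 and 4.45 CPM in the 2 libraries of Irf8 mutant cDC2, and Cd209e values of -2.09 and 1.96. These genes had low levels, and the Timd4 call in the mutant contrast was lost without any 1 of Zeb2 mutant cDC1 replicate 2, Zeb2 mutant cDC1 replicate 3 and Irf8 mutant cDC2 replicate 2. Banp, Cbx6, Fam78a, Nudt17, Gm45222 and Prdm15 were the others, with adjusted p-values of the difference from 0.236 to 0.324.

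Genes called in WT only had their largest WT values among low-level genes. Ifi206, an interferon-inducible member of the HIN-200 family whose copies share sequence, read 7.24 and 4.24 CPM in Zeb2 mutant cDC1 and 9.13 and 11.2 CPM in Irf8 mutant cDC2, against 2.04 and 1.21 CPM in WT cDC1 and 13.2 and 14.5 CPM in WT cDC2. Its mutant contrast was -0.82 ± 0.32 (adjusted p = 0.0805) and its WT contrast -3.09 ± 0.34, with a difference of 2.26 ± 0.46 (adjusted p = 0.27). The intermediate filament gene Prph read 0.860 and 1.70 CPM against 0.828 and 0.204 CPM in the mutants and was higher in WT cDC1 (2.93 ± 0.59). Pcyt1b (-3.24 in the mutant and -4.28 in the WT contrast), Dlgap3 (-2.25 and -4.15) and Anks6 (-1.19 and -2.58) kept the sign. The WT calls of Pcyt1b and Dlgap3 were lost without WT cDC1 replicate 2, and that of Pcyt1b also without any other 1 of the WT libraries.

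Genes called in the mutant contrast only included 2 in which 1 library stood out. Fn1, fibronectin, read 0.172 and 0.479 CPM in Zeb2 mutant cDC1 and 29.7 and 3.18 CPM in Irf8 mutant cDC2, against 0.259 and 1.18 CPM and 8.13 and 4.67 CPM in WT. Its mutant contrast was -5.66 ± 1.37 (adjusted p = 0.0258), -3.22 without Irf8 mutant cDC2 replicate 2, and the call was lost without any 1 of the WT or Zeb2 mutant libraries. Prg2, an eosinophil granule protein, read 11.9 and 0.857 CPM in Irf8 mutant cDC2, and without replicate 2 of that group its value went from -3.41 to -0.45; its call held without replicate 3 of that group and was lost with any other 1 library left out. Tceal8, a transcription elongation factor-like gene, was steadier: it read 0.413 and 0.701 CPM in Zeb2 mutant cDC1 against 5.12 and 6.08 CPM in Irf8 mutant cDC2, 4.84 and 2.34 CPM in WT cDC1 and 6.22 and 6.00 CPM in WT cDC2. Its mutant contrast of -3.33 ± 0.42 (adjusted p = 0.000197) stood beside -0.77 ± 0.37 in WT, with a difference of -2.56 ± 0.55 (adjusted p = 0.279). Efcc1 (3.66 ± 0.84) and the exchanger Slc24a1 (-2.91 ± 0.76) completed the set, and both calls were lost without either Irf8 mutant library, that of Efcc1 also without Zeb2 mutant cDC1 replicate 3 and that of Slc24a1 without either WT cDC1 library.

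Genes of maturation and costimulation were called mostly lower in cDC1 in both contrasts. Of 19 genes 13 were called lower in Zeb2 mutant cDC1 and none higher, against 10 lower and 2 higher in WT, with medians of -1.83 and -1.05. The difference of the contrasts was below 0 for 17 of 19 genes (54.0% of all tested genes), called for none and at an unadjusted p under 0.05 for 9 (7.62% of all tested genes). Ccr7, the receptor that guides mature cells to lymph nodes, read 470.2 and 526 CPM in Zeb2 mutant cDC1, 2292 and 1965 CPM in Irf8 mutant cDC2, 743 and 561 CPM in WT cDC1 and 1826 and 1694 CPM in WT cDC2. It was 4.27-fold lower in the mutant and 2.70-fold lower in the WT contrast, the subsets not overlapping in either. The ligand Tnfsf9 read 16.9 and 17.8 CPM against 65.1 and 58.4 CPM in the mutants and 37.8 and 38.4 CPM against 85.4 and 72.2 CPM in WT, and it fell within cDC1 by 1.13 on the log2 scale (adjusted p = 0.0185).

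Costimulatory ligands of the B7 family went different ways. Cd80 read 49.3 and 67.3 CPM against 260.4 and 249 CPM and was 4.37-fold lower in the mutant and 2.83-fold lower in the WT contrast, and Pdcd1lg2 was 19.4-fold lower. Cd86, in contrast, read 483 and 551 CPM in Zeb2 mutant cDC1 and 436 and 286 CPM in Irf8 mutant cDC2, against 551 and 491 CPM and 182 and 179.8 CPM in WT. It was higher in WT cDC1 (1.53 ± 0.19, 2.88-fold) and not called in the mutant contrast (0.52 ± 0.18, adjusted p = 0.0589), and the difference was not called (-1.01 ± 0.26, adjusted p = 0.377). Cd200, an inhibitory ligand, had the same pattern, with -0.02 ± 0.21 in the mutant and 1.23 ± 0.22 in the WT contrast. In both genes Irf8 mutant cDC2 lay above WT cDC2. Socs2, a suppressor of cytokine signalling, was called in the mutant contrast only, at 9.70 and 9.66 CPM against 32.1 and 21.9 CPM (-1.48 ± 0.24, adjusted p = 0.000937) beside 0.14 in WT.

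Cytokine and chemokine genes were called in both directions in each contrast, and 1 difference was called, that of Tnf. Of 26 tested genes 3 were called higher in Zeb2 mutant cDC1 and 11 lower, against 5 and 7 in WT. The median was -0.86 in the mutant and 0.12 in the WT contrast. The WT median turned to -0.18 with an offset for gene length, to -0.23 without WT cDC1 replicate 2 and to -0.08 without WT cDC2 replicate 3, and the WT mean was -0.37. The WT count of higher genes was 3 without either of those libraries. The difference was below 0 for 21 of 26 genes (54.0% of all tested genes). Il12b, the interleukin-12 subunit for which cDC1 are known, read 441 and 483 CPM in Zeb2 mutant cDC1, 152 and 142 CPM in Irf8 mutant cDC2, 624 and 443 CPM in WT cDC1 and 56.7 and 64.0 CPM in WT cDC2. It stayed called (1.65 ± 0.17, adjusted p = 4.16e-05, 3.14-fold) beside 8.84-fold in WT, with Irf8 mutant cDC2 above both WT cDC2 libraries. The difference of -1.495 ± 0.23 was not called (adjusted p = 0.133).

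Cxcl9, which attracts T cells, read 199 and 109.8 CPM against 8.36 and 13.5 CPM (14.1-fold higher), and Il15 was 3.65-fold higher. On the cDC2 side Vegfa, the vascular growth factor, read 4.08 and 2.49 CPM against 252 and 212 CPM (70.6-fold lower), Ltb, a ligand of lymphoid tissue organisation, 18.1 and 17.0 CPM against 106 and 145 CPM (7.17-fold lower), and Ccl5 47.3 and 51.1 CPM against 208 and 231 CPM (4.47-fold lower, 1.93-fold in WT). The chemokine Ccl9 (39.8-fold) and oncostatin M, Osm (9.77-fold), were lower too.

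Immediate-early and stress genes, which also respond to cell handling, were either called lower in cDC1 or not called in both contrasts. Of 28 genes 18 were called lower in Zeb2 mutant cDC1 and none higher, against 14 and 0 in WT, with medians of -0.69 and -0.56 (8 lower in WT without WT cDC2 replicate 2). Mutant log2 fold changes across the list ran from -2.97 to 2.49. With DESeq2, the fit on its own 4 libraries, robust estimation off or the crossed block, 2 members were called higher in Zeb2 mutant cDC1. The summed level of the list was 18790 and 17910 CPM in Zeb2 mutant cDC1 and 27260 and 31120 CPM in Irf8 mutant cDC2, against 25450 and 27260 CPM in WT cDC1 and 43810 and 39300 CPM in WT cDC2. Both mutant groups were thus below their WT counterparts, and the part of this in the maturation, cytokine and Tnf results was not tested. Fosb read 509 and 492 CPM against 1326 and 1439 CPM in the mutants and 811 and 766 CPM against 2495 and 2597 CPM in WT (2.76-fold lower in the mutant contrast). The phosphatase Dusp2 was called in the mutant contrast only, at 93.6 and 119 CPM against 302 and 305 CPM (2.85-fold lower), with 226 and 176 CPM and 262 and 254 CPM in WT. Nfkbiz (4.24-fold) and Tnfaip3 (3.35-fold), targets and regulators of NF-kB, were lower too.

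The contrasts called partly different cholesterol synthesis genes, none of them in opposite directions. Of 20 genes 3 were called higher in Zeb2 mutant cDC1 and 6 lower, against 7 higher and 2 lower in WT, and 4 were called the same way in both. The medians were -0.06, which changed sign with some libraries left out, and 0.13. The difference was below 0 for 16 of 20 genes (54.0% of all tested genes) and called for none. The count of lower genes was 3 without Zeb2 mutant cDC1 replicate 2, Zeb2 mutant cDC1 replicate 3 or Irf8 mutant cDC2 replicate 2, and the WT count of higher genes was 3 without WT cDC1 replicate 2 or WT cDC2 replicate 3, 1 without WT cDC2 replicate 2 and 4 without either Zeb2 mutant library. Pmvk, a kinase of the mevalonate pathway, was 3.55-fold lower beside 2.10-fold lower in WT. Dhcr7, the last enzyme of the pathway, ran the other way: at 12.5 and 15.6 CPM against 4.64 and 4.73 CPM in the mutants and 16.7 and 19.0 CPM against 15.4 and 12.1 CPM in WT it was 3.00-fold higher in the mutant contrast, with the low value in Irf8 mutant cDC2. Sqle, an epoxidase upstream of it, was called higher in WT cDC1 (0.63) but not in the mutant contrast (0.05).

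**Figure D5:**
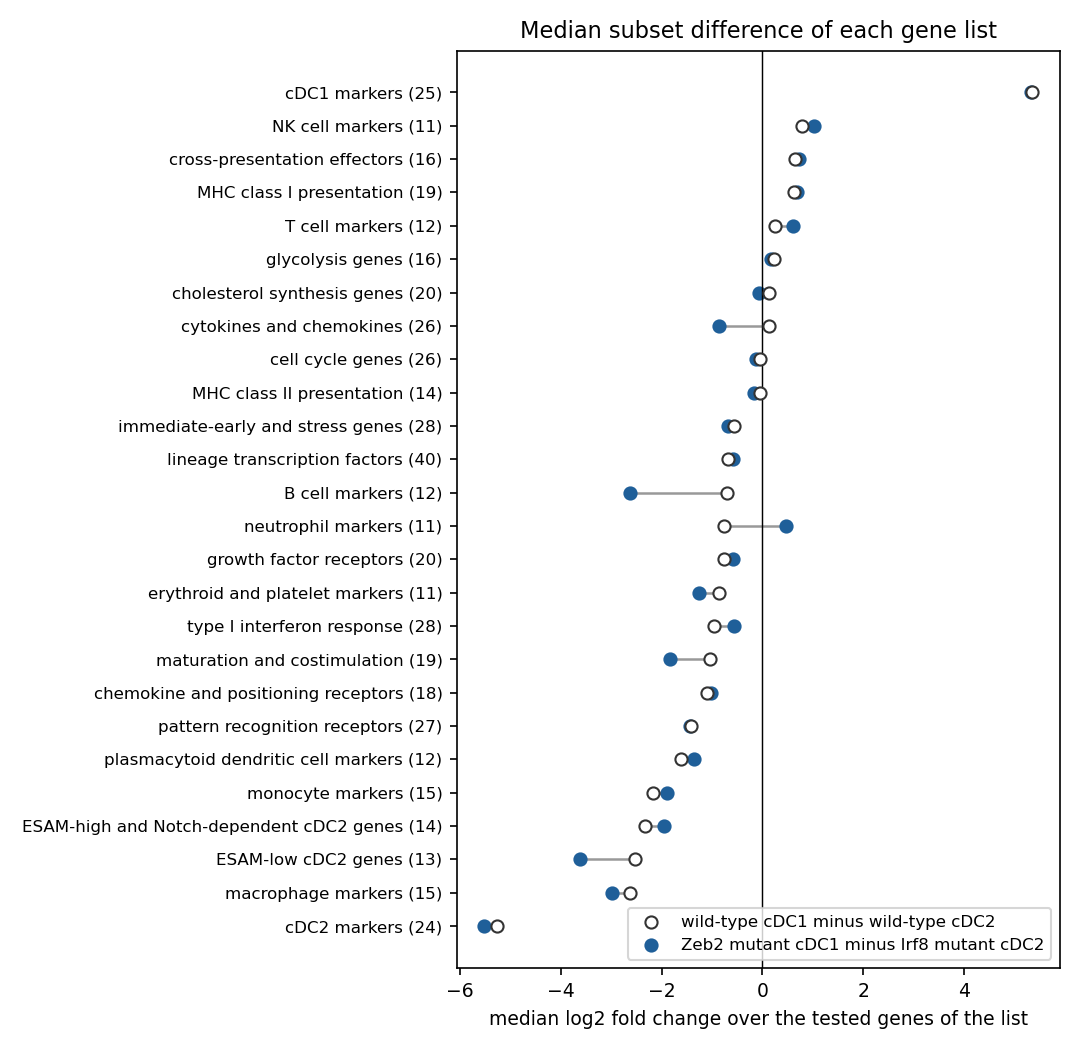
Median log2 fold change of each gene list in the WT contrast (open circles) and the mutant contrast (filled circles), joined by a line, with the number of tested genes beside each name and a line at 0. The cDC1 and cDC2 marker lists lie far from 0 with small shifts. The cytokine list goes from 0.12 in WT, a median that turned below 0 without WT cDC1 replicate 2, to -0.86. The maturation list goes from -1.05 to -1.83. Larger shifts are those of the B cell (-0.70 to -2.63), neutrophil (-0.76 to 0.47) and ESAM-low lists (-2.53 to -3.63).

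Interferon-response genes kept a mixed division. Of 28 genes 4 were called higher in Zeb2 mutant cDC1 and 16 lower, against 6 (3 without WT cDC2 replicate 3) and 16 in WT, 19 of them the same way in both, with medians of -0.57 and -0.97. Rtp4, a chaperone induced by interferon, read 0.516 and 0.664 CPM against 39.2 and 36.3 CPM (64.0-fold lower), and Isg15 7.83 and 5.64 CPM against 53.0 and 41.1 CPM (6.98-fold lower). Oas1a (18.3-fold), Ifit3 (16.03-fold) and Rsad2 (7.48-fold) were lower too. Mx1, an antiviral GTPase, went against them at 50.2 and 70.3 CPM against 15.97 and 16.2 CPM (3.75-fold higher), as did Ifi44 (3.42-fold) and Trim30a (2.29-fold).

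Receptors that position cells and receive growth factors were mostly called the same way in both contrasts. Of 18 chemokine and positioning receptors 4 were called higher and 8 lower, against 5 and 9 in WT, 11 the same way in both, with medians of -1.02 and -1.11. The mutant median was -0.52 without Zeb2 mutant cDC1 replicate 2, -0.48 without Irf8 mutant cDC2 replicate 2 and -0.67 without Irf8 mutant cDC2 replicate 3. Cxcr3 read 55.6 and 59.1 CPM against 2.81 and 2.81 CPM (20.4-fold higher) and the gut-homing receptor Ccr9 was 5.78-fold higher, while Ccr6 (22.1-fold) and Gpr183 (6.09-fold) were lower. Of 20 growth factor receptors 1 was called higher and 12 lower, against 0 and 13 in WT, 10 the same way in both and 3 in each contrast alone, with medians of -0.59 and -0.77. Flt3, the receptor on which both subsets depend, read 973 and 960.3 CPM against 926 and 901 CPM and was not called. Lifr, the receptor of leukaemia inhibitory factor, was 15.2-fold lower beside 39.6-fold lower in WT, having risen within cDC1 by 1.66 on the log2 scale (adjusted p = 0.0413). Cell cycle genes (1 of 26 higher and 5 lower, medians -0.12 and -0.04) and glycolysis genes (5 of 16 higher and 3 lower, medians 0.17 and 0.24) differed little in median between the contrasts. Over all tested genes 12.8% were called higher and 15.0% lower in the mutant contrast. Only 2 cell cycle genes were lower without Zeb2 mutant cDC1 replicate 3, either Irf8 mutant library or either WT cDC2 library, and 3 and 4 were higher without WT cDC1 replicate 2 and replicate 3. The higher glycolysis genes were 3 without replicate 3 of either mutant group.

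Marker lists of other cell types were summed in each library. Macrophage markers summed to 111.5 and 91.0 CPM in WT cDC1 and to 492.6 and 444.7 CPM in WT cDC2. In that contrast 11 of 15 were called lower and 1 higher. In the mutants they summed to 79.0 and 86.8 CPM in Zeb2 mutant cDC1 and to 582.7 and 414.0 CPM in Irf8 mutant cDC2. There 12 of 15 were called lower in Zeb2 mutant cDC1. Monocyte markers, of which cDC2 express many and Nr4a1 makes up most of the level, summed to 3214 and 3310 CPM against 4766 and 5694 CPM, with 10 of 15 called lower (6 without Zeb2 mutant cDC1 replicate 3) and 3 higher. In WT the monocyte markers summed to 4581 and 3583 CPM in cDC1 and 8205 and 7626 CPM in cDC2. There 9 were called lower and 4 higher. B cell markers summed to 42.8 and 45.0 CPM against 158.9 and 180.7 CPM in the mutants, with 4 of 12 called lower and 1 higher. Their WT sums were 61.2 and 48.9 CPM against 210.2 and 212.1 CPM, with the same counts called. Their median was -2.63 in the mutant and -0.70 in the WT contrast, and -2.84 in WT without WT cDC1 replicate 3. Cd79a, 1 of these markers, stayed under 1 CPM in all 4 mutant libraries. Plasmacytoid markers summed to 129.5 and 130.9 CPM against 309.4 and 294.0 CPM in WT. In the mutants they summed to 138.6 and 127.0 CPM against 303.3 and 249.7 CPM. In each contrast 6 of 12 were called lower and 2 higher.

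T cell markers (147.3 and 137.0 CPM against 142.8 and 103.4 CPM, 2 of 12 called higher and none lower) and NK cell markers (214.3 and 194.2 CPM against 164.9 and 208.5 CPM, 5 of 11 higher and 1 lower) summed to overlapping levels in the 2 groups. In WT, T cell markers summed to 122.9 and 105.5 CPM in cDC1 and 127.5 and 113.9 CPM in cDC2. NK cell markers summed there to 244.7 and 172.7 CPM against 184.3 and 196.2 CPM. The shares over all tested genes in the mutant contrast were 12.8% called higher and 15.0% lower. The higher T cell markers were 4 without Irf8 mutant cDC2 replicate 2 or WT cDC1 replicate 3 and 0 without Zeb2 mutant cDC1 replicate 3, and the higher NK cell markers 3 without Zeb2 mutant cDC1 replicate 2 or Irf8 mutant cDC2 replicate 3. The summed neutrophil markers lay higher in each mutant library than in each WT library. They summed to 98.5 and 139.1 CPM in Zeb2 mutant cDC1 and 137.6 and 77.8 CPM in Irf8 mutant cDC2, against 15.0 and 1.54 CPM in WT cDC1 and 31.6 and 53.2 CPM in WT cDC2. Their mutant median was 0.47, 1.2 without Irf8 mutant cDC2 replicate 2 and 0.08 without replicate 3 of that group, while the mean was -0.03. Their WT median was -0.76, and 1.24 without WT cDC2 replicate 3. Erythroid and platelet markers summed to 99.1 CPM in replicate 2 of Irf8 mutant cDC2 and to 8.36 to 32.3 CPM in the other 7 libraries, with 1 of 11 called higher and none lower in the mutant contrast. Without that library 5 were higher, and without replicate 3 of the group 6 were lower. That replicate 2 was above replicate 3 for the macrophage sum, Fn1, Prg2 and Mgl2, and the part of other cells in those results was not tested.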

How the data were processed

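Every library came with a table of 55487 Ensembl genes; per the file headers, its deposited counts are whole reads assigned to each gene. The authors' tools, per the submitters' processing notes, included the aligner STAR, featureCounts of Subread, and Salmon; GRCm38 and mm10 are the builds named. How strand and shared reads were treated is not stated there, so reads of overlapping or antisense genes cannot be told apart. Symbols came from GENCODE M21 (55227 IDs matched, 260 kept their ID), and coordinates are those of the files.

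The test used edgeR 4.0.16 in R 4.3.3: filterByExpr (20631 genes kept), TMM scaling, and a robust quasi-likelihood model with 1 coefficient per group over all 8 libraries, leaving 4 residual degrees of freedom (biological coefficient of variation 0.286). A fold divides the mean TMM-normalised CPM of one group by that of the other. Where a group has no count it is a bound against 3 counts over the group (0.0267 CPM in Zeb2 mutant cDC1), and with 1 to 3 counts none is given. Floors cover counting error only. Since the labels do not say what a replicate is, the p-values cover just the spread among these libraries, which may be technical. In 1 simulation, genes at a mean of at least 1 CPM were changed in Zeb2 mutant cDC1 only: 67 by 2-fold, 67 by 4-fold and 66 by 8-fold. All other genes had the same mean in every group. Among the unchanged genes, the mutant contrast called 9 and the difference of the contrasts 11. The mutant contrast recovered 55.2% of genes changed 2-fold and 86.6% of those changed 4-fold, and the difference of the contrasts 34.3% and 73.1%. Far more genes were called in the data, and genes at lower levels were tested, so these shares are not the power of the tests above.

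The libraries, the 26 gene lists (448 genes, 442 tested, some on several lists) and the rules were chosen with earlier results of these data known. Named genes are Xcr1, Irf8, Sirpa and Zeb2, the 10 largest called values per direction of the mutant contrast with at least 5 CPM in the higher group and groups that do not overlap, the 5 largest called in WT only and in the mutant contrast only, the 10 smallest p-values of the difference, and up to 4 members per list by p. Further list members were named as examples after their values were seen. Alternatives covered the scaling, DESeq2 1.42.0, the filter, the libraries fitted, a replicate block, gene length, robust estimation, the threshold and each library left out. They were run for the mutant contrast, the WT contrast and their difference. The direct tests of mutant against WT within a subset were not repeated under them. The main fit did not treat equal replicate numbers as pairs, and whether they are pairs is unknown. A few genes that these rules name are not reported here.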

Additional observations from a re-analysis of the deposited data

Results flagged for a closer look

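The difference of the contrasts, which tests whether the gap between the subsets differs between mutant and WT libraries, was called for 4 genes by edgeR's quasi-likelihood test with Benjamini-Hochberg adjustment, 3 of which are given. Cd209a had a difference of -4.57 ± 0.46 (adjusted p = 0.025), with a larger gap in the mutant libraries. Tnf had -1.49 ± 0.18 (adjusted p = 0.035), with a mutant contrast below 0 and a WT contrast above 0. Gp2 had -1.95 ± 0.23 (adjusted p = 0.035), with a smaller gap in the mutant libraries. In Cd209a and Tnf the change between the cDC1 groups was called and that between the cDC2 groups was not, and in Gp2 neither was called.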

How the results depend on the processing

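The mutant contrast kept 89.1% to 99.5% of its 5750 calls under other scaling, filters, DESeq2, the fit on its own 4 libraries, the replicate block, the gene length offset and without robust estimation, and 64.9% to 99.2% with 1 library left out. No called value of a named gene changed sign in the mutant contrast. The difference of the contrasts was the least stable result: against 0 higher and 4 lower genes, DESeq2 called 81 higher and 81 lower, no filter on low counts 139 higher and 167 lower, and the gene length offset 2 lower; the cause was not tested. Genes called in opposite directions, 11 in the report, numbered 22 with DESeq2, 18 without the filter, and 7 both with the own 4 libraries and with the gene length offset. At an adjusted p under 0.01 the mutant contrast called 1618 higher and 2059 lower genes, the WT contrast 1733 higher, the difference 0 lower, and 2904 genes were called the same way in both, 1034 in WT only, 772 in the mutant contrast only and 1 in opposite directions, as fewer genes pass.

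With each library left out in turn, the mutant contrast called 1681 to 3466 higher and 2051 to 3648 lower genes and the WT contrast 1721 to 3171 higher and 2091 to 3634 lower. Between 3170 and 4722 genes were called the same way in both, 641 to 2574 in WT only, 504 to 2353 in the mutant contrast only and 1 to 72 in opposite directions. The difference ranged from 0 to 541 higher and from 0 to 164 lower, both highest without WT cDC1 replicate 3, the group with the widest replicate spread, and at 0 lower without WT cDC2 replicate 2, either Zeb2 mutant library or Irf8 mutant cDC2 replicate 2. The lone library left in a group is assumed to vary like the others.

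Replicate numbers are shared by the groups. The deviations of equal numbers correlated at -0.0784 between the mutant groups and at -0.179 between the WT groups over 8399 genes. Such correlations cannot decide whether the libraries were paired, because each group has only 2 libraries. The deviations also followed gene length in WT cDC1 (rho -0.391) and Zeb2 mutant cDC1 (0.241). With the replicate block the mutant contrast called 2353 higher and 2832 lower genes and the difference 1 lower, Cd209a. With the crossed pairing, chosen after seeing the data, the difference had 1 higher and 3 lower genes. Values followed gene length across genes, with rho -0.274 for the WT contrast, -0.138 for the mutant contrast and 0.354 for their difference, and the offset took away the Gp2 and Tnf calls of the difference. Depth limits the calls for low-level genes, and 4 residual degrees of freedom limit the difference of the contrasts.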
